A study of Mus musculus with 4 samples.

Results

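Molecular motors turn ATP into movement along the cytoskeleton. Kinesins and cytoplasmic dynein walk along microtubules, most kinesins towards the growing ends and dynein back towards the cell centre, and they carry organelles, RNA and chromosomes, while myosins pull on actin filaments and power contraction, cell shape and short-range transport. In pigment cells, melanosomes are moved outwards by kinesin and inwards by dynein along microtubules and are held at the cell edge by a class V myosin. The genes described here are those whose mouse symbol begins with Kif, Klc, Dync, Dnah, Myo, Myh or Myl followed by a digit, that is the kinesins, the kinesin light chains, the subunits of cytoplasmic dynein, the heavy chains of axonemal dynein, the unconventional myosins, and the heavy and light chains of muscle and non-muscle myosin. *Myo5a* and the mitotic kinesins *Kif11*, *Kif20a*, *Kif23*, *Kif2c*, *Kif4* and *Kif18a* were left out. The arrays carried a named probe for 99 of the remaining genes, among 20832 genes in all. Of these, 62 had a signal well above background on each array of 1 population or of both, the filter that 11962 genes passed, and each was read from its brightest probe.

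B16-F10, a metastatic mouse melanoma cell line, was divided by flow cytometry into cells with little (Met-low) and much (Met-high) of the receptor Met on their surface, and the fractions were then kept apart in culture for 3 days. The labels name no agent and no engineered allele, and the sort gate is what separates the groups. Each population was prepared 2 times independently, and each RNA was hybridised to a 1-colour Agilent mouse array. The signal is given here as log2 of the background-corrected Cy3 intensity after division by that array's 75th percentile. Differences are the mean of the Met-high arrays minus the mean of the Met-low arrays, tested with limma over all genes past the filter with Benjamini-Hochberg adjustment at 0.05. In RNA from whole cultures, fewer cells of a kind and less RNA per cell cannot be told apart, and the precision of every value is bounded by having 2 arrays for each population. A probe's signal depends on its sequence, so levels were compared between populations and not between genes. All 8 melanocyte markers were well above background, with *Mlana*, *Pmel*, *Dct* and *Tyrp1* among them, and 0 were called different. Of 7 measured markers each, 2 of leukocytes, 2 of keratinocytes, 2 of fibroblasts and 3 of endothelium passed the filter, and of these 9 only *Col1a2* was called (log2 ratio -1.10, adjusted p = 0.0311). The signal of *Met* was -0.26 and -0.89 in Met-low and 1.03 and -0.43 in Met-high cells, so that Met-high replicate 2 lay between the Met-low arrays, and results that change without this array are given with and without it. All arrays lay on 1 slide with each population at neighbouring positions, so that population and slide position cannot be told apart.

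Small log2 ratios between Met-low and Met-high cells were about as frequent among the motor genes as among all genes. The log2 ratio was between -0.5 and 0.5 in 44 of the 62 genes (71.0%, against 72.6% of all genes compared). A ratio in this range does not show equal levels, since some of the intervals are wide. At an adjusted p under 0.05, 4 motor genes were higher in Met-high cells (6.45%, against 1.94% of all genes) and 0 were higher in Met-low cells (against 3.84% of all genes). The 4 genes were *Myl9*, a myosin regulatory light chain, *Klc3*, a kinesin light chain, *Myo1d*, a class I myosin, and *Kif22*, a chromosome-binding kinesin. More than a 2-fold difference of the means was found for 4 genes on the Met-high side (2.44% of all genes), namely *Myl9*, *Myo1d*, *Klc3* and *Myh7*, and for 2 on the Met-low side (5.32% of all genes), namely *Kif20b* and *Kif5b*. *Myh7* was not well above background on either Met-low array and *Myo1d* was well above it on only 1 of them. The sizes of these differences are therefore uncertain. With genes well above background on all arrays only, which leaves out both, 2 genes were past 2-fold on each side. The genes called were then *Myl9*, *Klc3*, *Kif22* and *Kif18b* on the Met-high side and *Kif5b* and *Myo6* on the Met-low side. At an unadjusted p under 0.05 there were 9 motor genes on the Met-high and 7 on the Met-low side, or 14.5% and 11.3%, close to the 14.3% and 11.9% of all genes. Both Met-high arrays lay above both Met-low arrays in 19 motor genes (30.6%, against 35.7% of all genes), and both Met-low arrays lay above both Met-high arrays in 16 (25.8%, against 22.6%). The median log2 ratio was -0.06 over the 62 genes and -0.07 over the 56 of them well above background on every array, where all genes compared had a median of 0.10. The split of the calls depends on the scaling. With the 75th percentile taken over probes well above background on all arrays, which moved the median of all genes to -0.05, *Myl9* and *Klc3* were called on the Met-high side and *Kif5b*, *Dync2h1*, *Myo6* and *Myo9a* on the Met-low side. Without Met-high replicate 2, 3 genes were called on each side, with *Kif5b*, *Kif20b* and *Dync2h1* on the Met-low side, and without Met-low replicate 1 there were 3 on the Met-high side and *Kif20b* on the Met-low side.

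**Figure D1:**
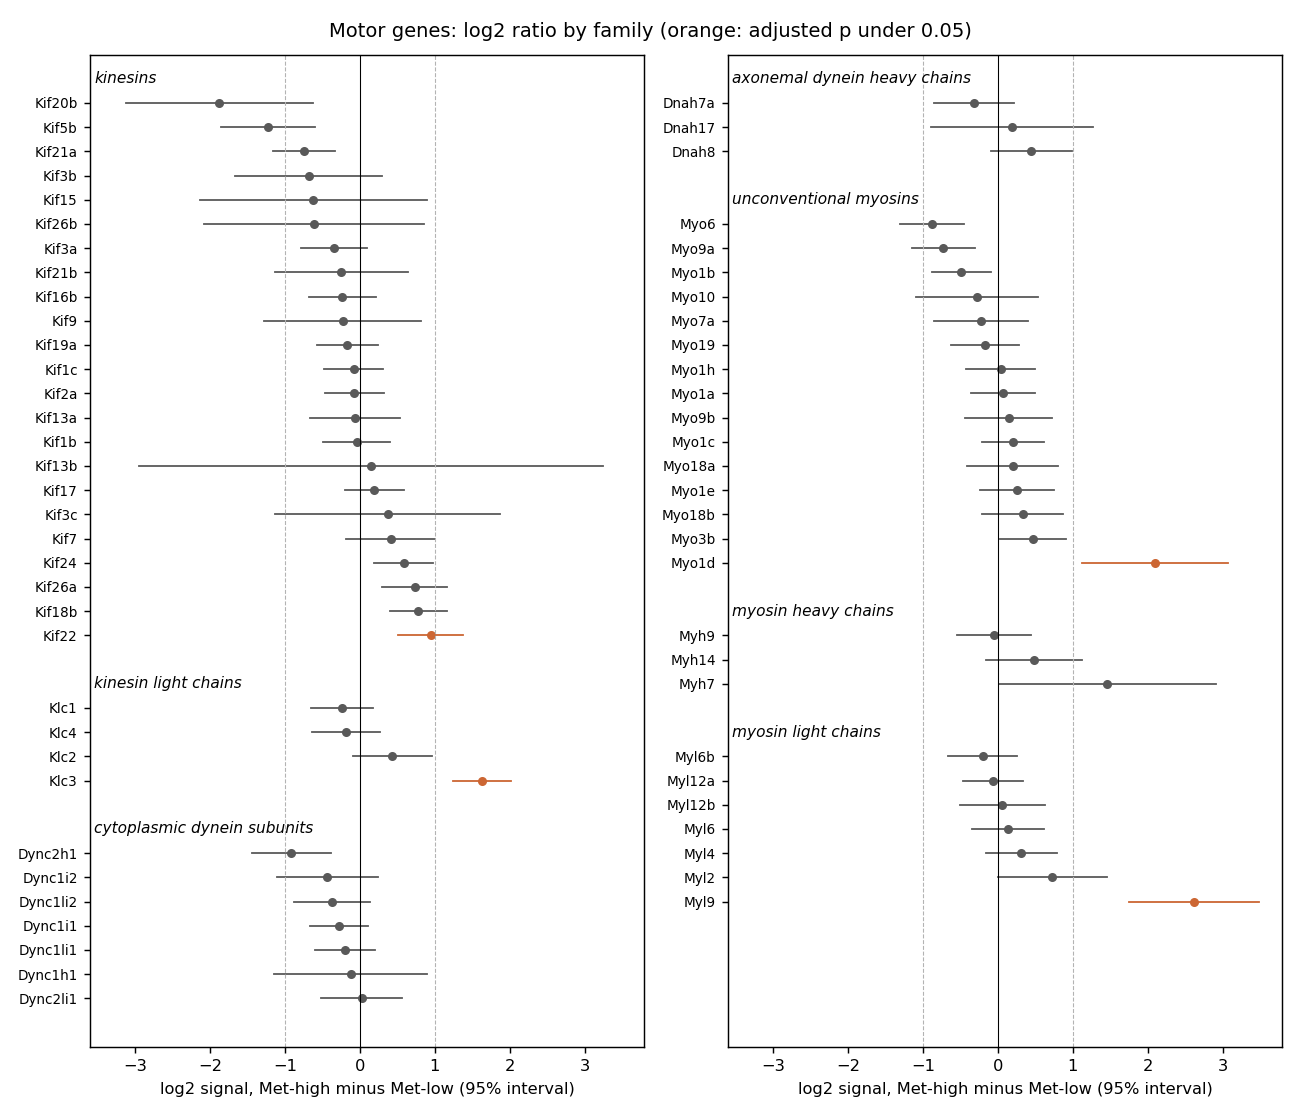
Log2 signal in Met-high minus Met-low cells for the 62 motor genes, grouped by family, with points for the difference of the means (2 arrays per population) and bars for the 95% interval from limma. Orange marks an adjusted p under 0.05 and dashed lines mark 2-fold, so that *Kif22*, *Klc3*, *Myo1d* and *Myl9* stand out on the right while most intervals cross 0.

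Myosin II is a hexamer of heavy chains, essential light chains and regulatory light chains, and phosphorylation of the regulatory light chain switches on its contraction. Of the 7 light chain genes compared, 1 was called, on the Met-high side (14.3%, against 1.94% of all genes). The largest difference of all 62 motor genes was that of *Myl9* (NM_172118), which encodes a regulatory light chain typical of smooth muscle and of contractile non-muscle cells. Its log2 signal was -1.93 and -0.95 in Met-low but 1.06 and 1.31 in Met-high cells. The populations did not overlap, and the gap between them was wider than the spread within either. The log2 ratio was 2.62 (SE, the moderated standard error, 0.34, 95% interval 1.75 to 3.49, adjusted p = 0.0206), or 6.16-fold, and it was 2.50 without Met-high replicate 2 (adjusted p = 0.00617). Of the 14 alternatives run, the call of *Myl9* was lost in that without a filter on dim probes (adjusted p = 0.111) and in no other.

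The other regulatory light chains of non-muscle cells did not show this difference. *Myl12a* (NM_026064) was at 5.96 and 5.93 in Met-low and at 5.80 and 5.94 in Met-high cells, giving a log2 ratio of -0.07 (95% interval -0.47 to 0.33). *Myl12b* (NM_023402) was at 3.75 and 4.02 against 3.71 and 4.18, giving a log2 ratio of 0.06 (95% interval -0.50 to 0.63). The essential light chain *Myl6* (NM_010860) had signals of 7.04 and 7.14 in Met-low and 7.05 and 7.41 in Met-high cells, giving a log2 ratio of 0.14 (95% interval -0.34 to 0.61). The arrays of the populations overlapped for each of these genes, and the intervals leave room for changes below 2-fold. The sequences of *Myl12a* and *Myl12b* are close, and how far each probe reads the other gene is not given in the files. The promoter of *Myl9* is shown because this gene changed most. It runs from 250 bases before to 30 bases after the start of transcription (RefSeq, GRCm38.p6, chr2:156775214-156775493, plus strand), with the CArG box, the site bound by serum response factor, in capitals, beginning at position -161 from the start.
Myl9: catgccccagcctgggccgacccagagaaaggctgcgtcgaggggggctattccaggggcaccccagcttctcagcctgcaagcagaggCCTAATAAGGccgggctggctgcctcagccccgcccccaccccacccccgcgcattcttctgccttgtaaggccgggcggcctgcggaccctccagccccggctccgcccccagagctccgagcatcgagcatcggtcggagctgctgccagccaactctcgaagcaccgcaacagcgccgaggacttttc
A CArG box on either strand, within 250 bases before and 50 after the start, was found for 4 of the 52 motor genes with a RefSeq promoter (7.69%) and for 1.81% of 27025 genes in all. The others were *Myl6*, *Myo1e* and *Kif20b*, none of which was called with *Myl9*, and a match of letters does not show that the site is used.

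Enzymes that act on the regulatory light chain were measured as well, with related kinases and phosphatase regulators. Of 15 such genes considered, 11 were compared. Of these, 3 were called lower in Met-high cells (27.3%, against 3.84% of all genes) and 0 were called higher (against 1.94%). The median log2 ratio of these 11 genes was 0.03. *Mylk* (NM_139300), the calmodulin-dependent myosin light chain kinase, fell from 0.33 and -0.02 to -1.11 and -1.73, giving a log2 ratio of -1.57 (SE 0.27, adjusted p = 0.0371). *Cdc42bpa* (NM_001033285), a kinase downstream of Cdc42, had the log2 ratio -1.24 (adjusted p = 0.0357), and its 3 other probes gave ratios between -2.04 and -0.76. *Ppp1r12a* (NM_027892), the subunit that targets the phosphatase to myosin, had the log2 ratio -1.08 (adjusted p = 0.0431). Thus 2 kinases and a subunit of the opposing phosphatase were lower in Met-high cells, where *Myl9* was higher. The calls of *Cdc42bpa* and *Ppp1r12a* are the less stable ones, since without Met-low replicate 1 their adjusted p was 0.0745 and 0.0924 and without Met-high replicate 2 it was 0.0581 and 0.0965, and that of *Ppp1r12a* was 0.0636 without Met-low replicate 2. The remaining compared genes of the list did not pass the test. Their log2 ratios were 0.03 for the catalytic subunit *Ppp1cb*, 0.48 for *Stk10*, 0.37 for *Dapk3*, 0.40 for *Cdc42bpb*, 0.42 for *Ppp1r12c* and 0.16 for *Ppp1r14b*. On the Met-low side they were -0.41 for *Cit* and -0.88 for *Cdc42bpg* (adjusted p = 0.0873 in limma).

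**Figure D2:**
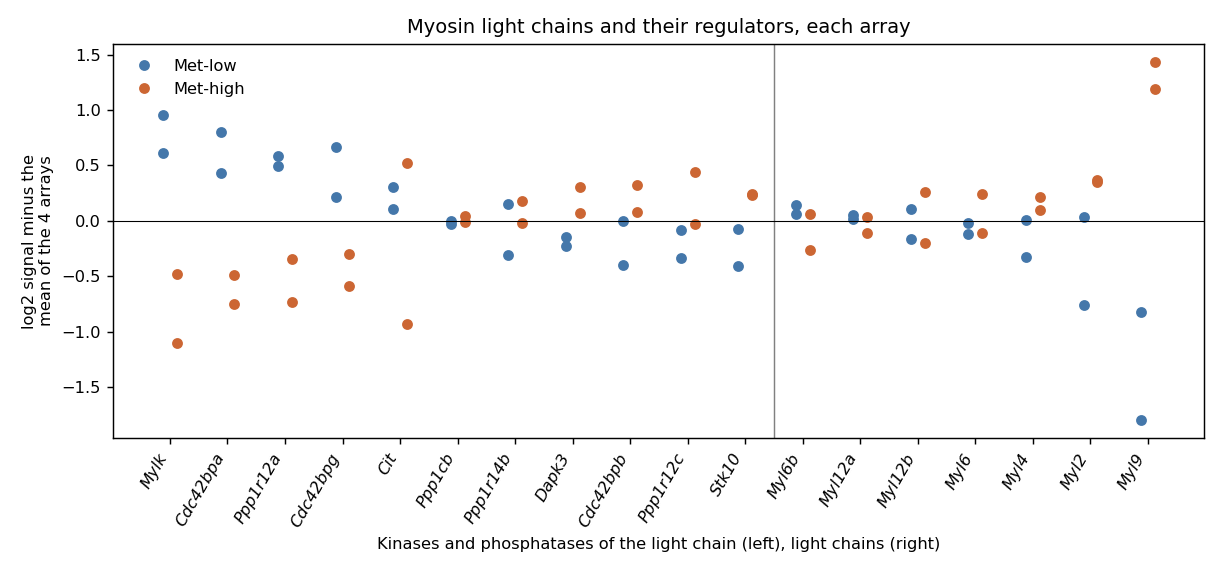
Log2 signal of each array minus the mean of the 4 arrays, with Met-low arrays in blue and Met-high arrays in orange. Left of the line are the compared kinases and phosphatases of the myosin light chain with related genes. The light chains are on the right. *Mylk*, *Cdc42bpa* and *Ppp1r12a* separate with Met-low above, *Myl9* with Met-high above, and *Myl12a*, *Myl12b* and *Myl6* lie near 0 with overlap.

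Markers of smooth muscle were examined beside *Myl9*. Of 7 markers, *Acta2*, *Cnn1*, *Lmod1* and *Synpo2* were not well above background on both arrays of either population. The summed signal of the list, on a linear scale relative to the 75th percentile, was 5.47 and 5.24 in Met-low but 8.85 and 11.8 in Met-high cells. Most of this sum came from *Smtn*, with log2 signals of 2.35 and 2.17 against 3.08 and 2.90 and a ratio of 0.74 (adjusted p = 0.0737), and from *Tagln* on Met-high replicate 2. *Tagln* had signals of -1.83 and -0.64 in Met-low and -2.26 and 2.07 in Met-high cells, with overlap, so that its ratio of 1.14 rests on Met-high replicate 2 and was -1.02 without that array. The part of these genes in the difference of *Myl9* was not tested.

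Of the myosin heavy chains, only *Myh9*, *Myh14* and *Myh7* passed the filter, and 0 of these 3 were called. *Myh9* (NM_022410), the heavy chain of non-muscle myosin IIA, was at 5.14 and 4.75 in Met-low and 4.95 and 4.83 in Met-high cells, giving a log2 ratio of -0.06 (95% interval -0.55 to 0.44). Thus the main non-muscle heavy chain overlapped between the populations while its regulatory partner *Myl9* did not. *Myh14* (NM_028021), the heavy chain of non-muscle myosin IIC, had a log2 ratio of 0.48 (SE 0.25, adjusted p = 0.294) without overlap. Its other probe was well above background on no array. *Myh10*, which encodes the heavy chain of non-muscle myosin IIB, did not pass the filter.

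*Myh7* (NM_080728), the slow and cardiac muscle heavy chain, was not well above background on either Met-low array. Its Met-high signals were -4.77 and -3.53, and limma gave an adjusted p of 0.188. The Met-high mean was 1.54-fold above a detection level for the Met-low arrays. That level was, on each Met-low array, the higher of the lowest signal well above background and the probe's own signal. The figure leaves out the spread of the replicates and is not a minimum for the difference. The log2 ratio of *Myh7* was 1.46. Over the 13 alternatives that tested this gene it ran from 0.46, after a normexp background correction, to 2.11. Markers of skeletal and cardiac muscle gave summed signals of 0.398 and 0.464 in Met-low but 0.631 and 0.741 in Met-high cells, and 8 of these 12 markers, among them *Myod1*, *Myog*, *Ckm*, *Acta1*, *Actc1* and *Ttn*, did not pass the filter. Of those that did, *Tnnt1*, the slow muscle troponin T, had both Met-high arrays on top, with means of -2.36 and -1.43 in Met-low and Met-high cells (log2 ratio 0.93, adjusted p = 0.0517), and gave the most to this sum. The part of these genes in the signal of *Myh7* was not tested. Whether the signal of *Myh7* comes from that gene or from a close muscle heavy chain was not tested.

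Kinesin-1 is built from a pair of Kif5 heavy chains and a pair of Klc light chains, and the light chains choose its cargo. All 4 light chain genes passed the filter and 1 was called, on the Met-high side (25%, against 1.94% of all genes). *Klc3* (NM_146182), known for its role in sperm tail formation where it binds mitochondria, was at -4.18 and -4.15 in Met-low and at -2.54 and -2.53 in Met-high cells. The replicates of each population were nearly equal, and the populations did not overlap. The log2 ratio was 1.63 (SE 0.15, 95% interval 1.25 to 2.01, adjusted p = 0.0094). Of the 14 alternatives its call was lost in that without a filter on dim probes (adjusted p = 0.0829), and after a normexp background correction the ratio was 0.92. A second probe of *Klc3* was well above background on no array.

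The remaining light chains differed less. *Klc2* (NM_008451) had a log2 ratio of 0.43 (95% interval -0.09 to 0.96), with 2.39 and 2.11 in Met-low and 2.87 and 2.50 in Met-high cells. *Klc1* (NM_008450) had -0.24 (95% interval -0.65 to 0.18) and *Klc4* (NM_029091) -0.18 (95% interval -0.64 to 0.27). Neither of these 2 genes overlapped, with Met-low cells on top, but the gaps were too small for the test. Among the heavy chains, *Kif5b* (NM_008448), the form found in most tissues, passed the filter, while *Kif5a* and *Kif5c*, the forms of neurons, did not. *Kif5b* was at -1.43 and -1.19 in Met-low and at -2.83 and -2.24 in Met-high cells. Its log2 ratio was -1.23 (SE 0.25, adjusted p = 0.0559), or 2.34-fold higher in Met-low cells, without overlap. Without Met-high replicate 2 the ratio was -1.52 and the adjusted p was 0.0112. The heavy chain and the light chain *Klc3* of this motor therefore had ratios of opposite sign. *Kif5b* passed the threshold of limma in 6 of the 14 alternatives, among them normexp (adjusted p = 0.0356), the filter on all arrays (adjusted p = 0.0478) and the mean-variance trend (adjusted p = 0.0402). Among the others, it did not pass with quantile normalization (adjusted p = 0.0938) or without a filter on dim probes (adjusted p = 0.222).

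Adaptors and binding partners of kinesins, not of kinesin-1 alone, were read from a list of 15 genes, of which 14 were compared. Of these, 1 was called, on the Met-low side (7.14%, against 3.84% of all genes). *Fyco1* (NM_148925), which links late endosomes and autophagosomes to kinesin, was at -1.46 and -1.51 in Met-low and at -3.32 and -3.14 in Met-high cells, giving a log2 ratio of -1.75 (SE 0.16, adjusted p = 0.0094). The median over the list was -0.05, against 0.10 over all genes. The higher mean was on the Met-low side in 9 of the 14 (64.3%, against 40.5% of all genes).

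**Figure D3:**
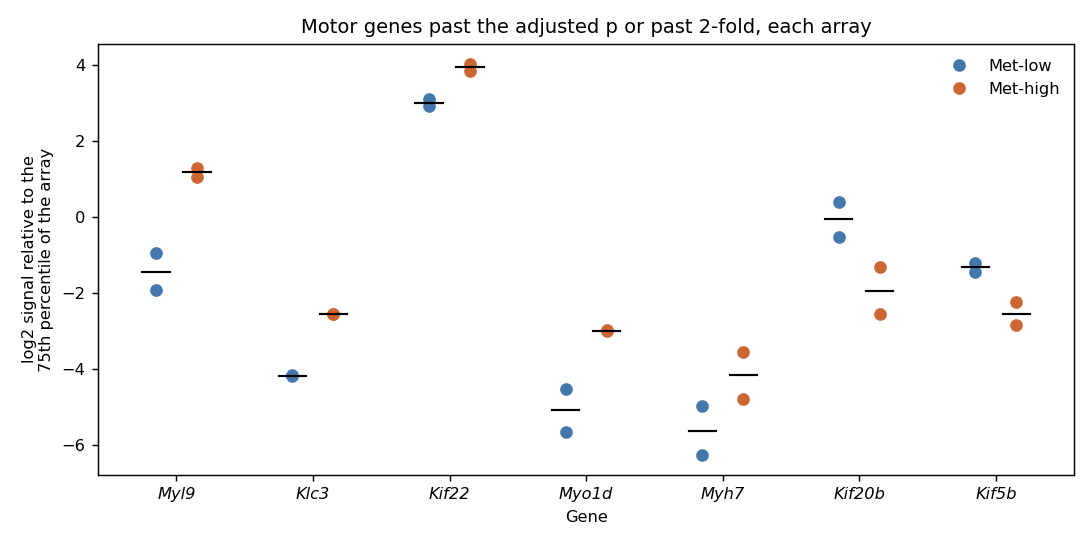
Log2 signal relative to the 75th percentile of the array for the 7 motor genes past the adjusted p or past 2-fold, with a point for each array and a line at the mean of each population (2 arrays). The arrays of *Klc3* and *Kif22* lie close together within a population, those of *Myh7* and *Kif20b* lie apart, and levels are comparable within a gene only.

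Of 23 kinesins compared, 1 was called, on the Met-high side (4.35%, against 1.94% of all genes). The higher mean was on the Met-low side in 15 and on the Met-high side in 8 (median log2 ratio -0.09). Of all genes compared, 40.5% had their higher mean on the Met-low side. Several kinesins work in the mitotic spindle. *Kif22* (NM_145588), a chromokinesin that binds DNA and pushes chromosome arms towards the spindle equator, was at 2.92 and 3.11 in Met-low and at 3.86 and 4.05 in Met-high cells. The log2 ratio was 0.94 (SE 0.17, 95% interval 0.51 to 1.38, adjusted p = 0.044), or 1.92-fold, without overlap. This call is close to the threshold. It was lost without Met-low replicate 1 (adjusted p = 0.139), Met-low replicate 2 (adjusted p = 0.067) or Met-high replicate 2 (adjusted p = 0.116), and with quantile normalization (adjusted p = 0.0613), the percentile over detected probes (adjusted p = 0.0559) or no filter (adjusted p = 0.197), while the ratio stayed between 0.78 and 1.03.

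*Kif18b* (NM_197959), which trims the plus ends of astral microtubules, was at -0.39 and -0.40 in Met-low and at 0.37 and 0.41 in Met-high cells, giving a log2 ratio of 0.78 (SE 0.15, adjusted p = 0.052). It passed the threshold of limma with normexp (adjusted p = 0.0434), with genes well above background on all arrays only (adjusted p = 0.0471) and with a mean-variance trend (adjusted p = 0.0356). It did not pass with quantile normalization (adjusted p = 0.054) or with the percentile over detected probes (adjusted p = 0.0762). *Kif24* (NM_024241), a centriole kinesin that restrains the growth of cilia, had a log2 ratio of 0.58 (adjusted p = 0.0985), also with both Met-high arrays on top. *Kif20b* (NM_183046), which acts late in cell division at the midbody, lay on the other side. It was at -0.52 and 0.41 in Met-low and at -2.54 and -1.32 in Met-high cells, and its log2 ratio of -1.88 (SE 0.49, adjusted p = 0.0953) was the lowest of all motor genes. The arrays within each population were far apart for *Kif20b*, yet the populations did not overlap. The ratio of *Kif20b* was -2.49 without Met-high replicate 2 and -1.27 without Met-high replicate 1. These were the lowest and the highest of the 14 alternatives. *Kif15* (NM_010620), a spindle kinesin that helps to keep the poles apart, overlapped between the populations with a log2 ratio of -0.62 (SE 0.60). The ratios of these cell division kinesins thus had both signs.

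The promoters of *Kif22*, *Kif18b* and *Kif20b* are shown because the ratios of these cell division kinesins had opposite signs. All of them match, on either strand, the letters TTTGAA of the cell cycle gene homology region, CHR, given in capitals. Each runs from 250 bases before to 30 bases after the start (RefSeq, GRCm38.p6), at chr7:127042391-127042670 on the minus strand for *Kif22*, chr11:102925095-102925374 on the minus strand for *Kif18b* and chr19:34922108-34922387 on the plus strand for *Kif20b*.
Kif22: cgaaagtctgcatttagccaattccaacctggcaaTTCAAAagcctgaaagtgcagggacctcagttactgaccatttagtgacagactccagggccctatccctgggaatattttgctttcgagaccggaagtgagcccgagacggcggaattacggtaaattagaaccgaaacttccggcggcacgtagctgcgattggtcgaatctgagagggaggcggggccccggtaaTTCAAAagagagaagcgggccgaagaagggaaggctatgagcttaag
Kif18b: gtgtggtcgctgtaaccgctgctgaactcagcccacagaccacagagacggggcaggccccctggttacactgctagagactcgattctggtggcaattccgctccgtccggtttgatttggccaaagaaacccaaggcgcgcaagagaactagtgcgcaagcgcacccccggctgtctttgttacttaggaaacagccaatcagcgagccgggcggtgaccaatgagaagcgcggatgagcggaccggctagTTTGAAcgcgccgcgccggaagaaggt
Kif20b: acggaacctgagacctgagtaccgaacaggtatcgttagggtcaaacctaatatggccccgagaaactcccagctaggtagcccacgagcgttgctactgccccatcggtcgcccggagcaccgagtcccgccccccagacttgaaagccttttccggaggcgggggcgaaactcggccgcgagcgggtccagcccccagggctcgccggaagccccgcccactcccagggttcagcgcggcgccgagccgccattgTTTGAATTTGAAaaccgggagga
*Kif22* and *Kif20b* held 2 matches each and *Kif18b* held 1. Those nearest to the start began at position -17 in *Kif22*, 3 in *Kif18b* and 7 in *Kif20b*. In windows reaching 50 bases past the start, 5 of 19 kinesins (26.3%) and 8 of 52 motor genes (15.4%) held such a match, against 20.2% of all genes, so the motif was about as frequent among motor genes as elsewhere. Here too, a match of letters does not show that the site is used. The CArG box of *Kif20b*, mentioned with *Myl9*, is not in capitals here.

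None of the kinesins of organelle and cilium transport was called. Kinesin-2 pairs *Kif3a* with *Kif3b* or *Kif3c* and carries cargo along cilia and towards the cell edge, and it has been tied to melanosome movement. *Kif3a* (NM_008443) had a log2 ratio of -0.35 (95% interval -0.78 to 0.09) without overlap, and *Kif3b* (NM_008444) had -0.68 (95% interval -1.67 to 0.30) with overlap. A second probe of each gene, well above background on all arrays, gave -0.74 for *Kif3a* and -0.11 for *Kif3b*. *Kif3c* (NM_008445) was at -1.21 and -1.03 in Met-low cells but at -1.68 and 0.18 in Met-high cells, so that its ratio was 1.30 without Met-high replicate 1 (adjusted p = 0.0205) and -0.56 without Met-high replicate 2. *Kif21a* (NM_001109040), which slows microtubule growth at the cell cortex, was at 1.09 and 0.91 against 0.29 and 0.20, giving a log2 ratio of -0.75 (SE 0.16, adjusted p = 0.0648). *Kif26a* (NM_001097621), a kinesin without motor activity, was at -1.86 and -1.85 against -0.99 and -1.26, a ratio of 0.73 (SE 0.17, adjusted p = 0.0764). Neither passed the test, and neither overlapped between the populations. *Kif1c* (NM_153103), a carrier of vesicles and of integrins, was at 2.84 and 2.76 in Met-low and 2.77 and 2.65 in Met-high cells, and *Kif21b* (NM_001039472) had a log2 ratio of -0.25 (95% interval -1.14 to 0.64). *Kif13b* (NM_001081177) ranged from -6.15 to -2.43 within Met-low cells alone, which leaves its ratio undetermined (95% interval -2.96 to 3.24).

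Cytoplasmic dynein 1 carries cargo to the cell centre, and dynein 2 returns material from the tip of the cilium. All 7 subunit genes passed the filter, 0 were called by limma, 1 had an unadjusted p under 0.05, and 6 had their higher mean on the Met-low side (against 40.5% of all genes), with a median log2 ratio of -0.28. The gene with the unadjusted p was *Dync2h1* (NM_029851), the motor subunit of dynein 2. It was at -0.68 and -0.74 in Met-low and at -1.85 and -1.39 in Met-high cells, giving a log2 ratio of -0.92 (SE 0.21, adjusted p = 0.071), and its adjusted p was 0.0358 without Met-high replicate 2. Its partner *Dync2li1*, a light intermediate chain, had a ratio of 0.02 (95% interval -0.52 to 0.56).

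The subunits of dynein 1 overlapped or differed by less than 2-fold. *Dync1h1* (NM_030238), the motor subunit, had signals of 4.65 and 3.55 in Met-low and 4.25 and 3.71 in Met-high cells, so that the replicates spread more than the populations (log2 ratio -0.12, 95% interval -1.14 to 0.90). The intermediate chains *Dync1i1* (NM_010063) and *Dync1i2* (NM_001198872), which hold the cargo-binding parts together, had ratios of -0.28 and -0.44, and a second probe of *Dync1i1* gave -0.27. The light intermediate chains *Dync1li1* and *Dync1li2* had -0.20 and -0.37. None of these 4 genes passed the test, with standard errors of 0.15 to 0.27.

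Dynactin is the complex that dynein needs for long runs. All 12 dynactin genes were compared and 0 passed the adjusted p in limma (1 had an unadjusted p under 0.05), with a median log2 ratio of -0.0041 and 11 of the 12 within 0.5 of 0. Of 15 compared activators and regulators of dynein, 2 were called lower in Met-high cells (13.3%, against 3.84% of all genes) and 0 higher (against 1.94%). Without overlap there were 5 of these genes on each side, or 33.3% each. Of all genes, 22.6% had both Met-low arrays on top and 35.7% both Met-high arrays. *Hook3* (NM_207659), an activating adaptor, was at -0.21 and 0.01 against -1.38 and -1.56, giving a log2 ratio of -1.37 (SE 0.17, adjusted p = 0.0191), and its other probe gave -1.67. *Nin* (NM_008697), a centrosomal adaptor that anchors microtubules, had the ratio -1.01 (adjusted p = 0.0323), and its other probes gave -1.27 and -1.39. Of 7 small light chains of dynein, only *Dynlt3* (NM_025975) was called, on the Met-low side (14.3%, against 3.84% of all genes). It was at 1.25 and 1.34 against 0.49 and 0.24, a ratio of -0.94 (adjusted p = 0.0445). Without Met-low replicate 1, Met-low replicate 2 or Met-high replicate 2 in turn, the adjusted p of *Nin* was 0.0578, 0.0927 and 0.0728, and that of *Dynlt3* was 0.0947, 0.114 and 0.126.

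Intraflagellar transport trains are the cargo frame of kinesin-2 and dynein 2. Of 17 compared genes, 1 was called, on the Met-low side (5.88%, against 3.84% of all genes). *Ift74* (NM_026319), a core subunit, was at -1.46 and -0.77 in Met-low and at -3.21 and -2.69 in Met-high cells, giving a log2 ratio of -1.83 (SE 0.31, adjusted p = 0.0365, and 0.0596 with quantile normalization), while the median of the list was -0.06. Over the 7 partner lists together, with 102 genes considered, 9 of the 88 compared passed the adjusted p of 0.05 as lower in Met-high cells and 0 as higher. At the same threshold, 3.84% and 1.94% of all genes were called on the Met-low and Met-high side. The median of the 88 genes was -0.06. Without Met-low replicate 1 or Met-high replicate 2 the number called lower in Met-high cells was 5 each.

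Axonemal dynein heavy chains drive the beat of motile cilia. Of 10 such genes with a named probe, 3 passed the filter and 0 were called by limma, at the adjusted or at an unadjusted p under 0.05. *Dnah7a* (NM_001252070) was at -0.28 and -0.07 in Met-low and at -0.71 and -0.27 in Met-high cells, *Dnah8* (NM_013811) at -3.61 and -3.11 against -2.92 and -2.92, and *Dnah17* (NM_001167746) at -3.46 and -4.75 against -3.99 and -3.85. The populations overlapped for *Dnah7a* and *Dnah17*, and *Dnah8* had a log2 ratio of 0.44 (SE 0.21, adjusted p = 0.259). In each of the 3 genes, 1 probe was well above background on all arrays while the remaining probes, 2 for *Dnah7a*, 2 for *Dnah8* and 1 for *Dnah17*, were so on no array.

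Of 10 measured genes of motile cilia, 5 did not pass the filter, among them *Tekt1*, *Tekt2* and *Spag6*, and the summed linear signal of all 10 was 35.3 and 16.5 in Met-low and 19.5 and 24.0 in Met-high cells. Nearly all of this sum came from *Dnaic1*, an intermediate chain of axonemal dynein with log2 signals of 5.10 and 3.97 against 4.23 and 4.55, which overlapped. *Foxj1* (NM_008240), the transcription factor of motile cilia, was not well above background on either Met-low array. In Met-high cells its mean was 1.76-fold above the detection level described for *Myh7* (adjusted p = 0.0311 in limma for the measured difference, and 0.168 after normexp). *Dnaic2* (NM_001034878), another such chain, was lower there, with a log2 ratio of -1.20 (adjusted p = 0.0311, and 0.0607 without Met-low replicate 1). *Rsph1*, a radial spoke gene, had a ratio of 1.28 (adjusted p = 0.088) and *Hydin*, a gene of the central pair, had -0.15 (adjusted p = 0.866).

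Unconventional myosins tether and move membranes on actin. Of 15 compared, 1 was called, on the Met-high side (6.67%, against 1.94% of all genes), and the median log2 ratio was 0.07. *Myo1d* (NM_177390), a class I myosin that links membranes to actin and sets left-right asymmetry, was at -5.66 and -4.51 in Met-low and at -3.01 and -2.96 in Met-high cells. The Met-high arrays agreed closely, while Met-low replicate 1 was not well above background, so that the Met-low level was measured on 1 array and the size of the ratio is uncertain. The gene had no test where all arrays had to be well above background. The log2 ratio was 2.10 (SE 0.39, 95% interval 1.13 to 3.08, adjusted p = 0.0445), and it was 2.08 without Met-high replicate 2 (adjusted p = 0.0240). The call was lost with the percentile over detected probes (adjusted p = 0.0621) and without a filter (adjusted p = 0.183), and the ratio was 0.95 after normexp. A second probe of *Myo1d* read differently, at -2.39 on Met-low replicate 2 and at -6.84, -7.20 and -7.46 on the other arrays, none of them well above background. The signal of that probe therefore rests on a single array, and its mean ratio of -2.71 has the opposite sign.

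*Myo6* (NM_001039546), the myosin that moves towards the minus ends of actin and works in endocytosis, was at -3.00 and -2.95 against -3.98 and -3.73, giving a log2 ratio of -0.88 (SE 0.17, adjusted p = 0.0505). *Myo9a* (NM_173018), a class IX myosin, was at -3.49 and -3.28 against -4.12 and -4.10, a ratio of -0.73 (SE 0.17, adjusted p = 0.0704). Both genes lay outside the threshold without overlap, and both passed it in limma with the percentile over detected probes (adjusted p = 0.0324 and 0.0485). Neither passed it after normexp, with ratios of -0.46 and -0.31 (adjusted p = 0.113 and 0.272). Nor did they with quantile normalization (adjusted p = 0.0992 and 0.127). The related *Myo9b* (NM_015742) had a ratio of 0.14 (95% interval -0.43 to 0.72) with overlap. *Myo7a* (NM_008663), which holds melanosomes in the retinal pigment epithelium, was at 4.03 and 3.40 in Met-low and 3.55 and 3.42 in Met-high cells, a ratio of -0.23 (95% interval -0.86 to 0.39), and *Myo18a* (NM_011586), a myosin of the Golgi, had 0.20 (95% interval -0.41 to 0.80).

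Genes of melanosomes and secretory granules, some of which link these to myosins, were read from a list of 14, of which 12 were compared. Of these, 1 was called, on the Met-low side (8.33%, against 3.84% of all genes). *Sytl4* (NM_013757), a Rab27 effector of granule secretion, was called, at -2.54 and -2.51 in Met-low and at -3.75 and -3.65 in Met-high cells, giving a log2 ratio of -1.18 (SE 0.15, adjusted p = 0.0206, and 0.0693 after normexp). *Rab27a* and *Mlph*, which join the melanosome to its myosin, had ratios of -0.19 and 0.04 and were not called.

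The motor genes that did not pass the filter numbered 37, that is 8 kinesins, 7 axonemal dyneins, 7 unconventional myosins, 11 myosin heavy chains and 4 myosin light chains. Among them were forms known from skeletal and cardiac muscle, such as *Myh1*, *Myh2*, *Myh4* and *Myl1*, from neurons, such as *Kif1a*, *Kif5a* and *Kif5c*, from motile cilia or from leukocytes, such as *Myo1f* and *Myo1g*. *Myo5b* and *Myo5c*, the other class V myosins, and *Kif2b*, *Kif12*, *Myo3a*, *Myo7b*, *Myo15* and the non-muscle *Myh10* also did not pass. Of the 62 compared, 22 had more than 1 probe. In 9 of these 22, no other probe was well above background on any array, as in *Klc3*, *Kif26a* and the axonemal dyneins. Where another probe was well above background on all arrays, which held for 10 probes of 9 genes, 9 of the 10 had the direction of the brightest probe, and the ratios differed by at most 0.58. Across the motor genes the log2 ratio was weakly and negatively related to the length of the gene on the genome (Spearman's rank correlation -0.29 over 62 genes, and -0.19 over all 11962). These genes share the same 4 arrays, and the relation is a description only.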

How the data were processed

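The study measured gene expression on 4 one-colour Agilent Whole Mouse Genome arrays, 2 per population. The authors deposited the scanner output of each array, which holds background-corrected Cy3 intensities on a linear scale, extracted with Agilent Feature Extraction (11.0.1.1 per the file headers, 10.7.3.1 per the submitters' processing notes). The authors also deposited a table of log2 values after their own percentile scaling and median centring per gene. That table matched the scanner values treated in this way to within 0.01 for 93.3% to 99.8% of probes, and was used only as an alternative.

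Intensities were taken to log2, and log2 of the 75th percentile of each array was subtracted. The percentiles were 858 to 1331, and 50.0% to 53.6% of spots were well above background. Between 207 and 232 flagged spots per array were left out, 0 spots were saturated, and spots of a probe were averaged. A probe with several spots counted as well above background where this held for at least 50% of them. Of 39429 probes, 27427 were named through their accession with the RefSeq table of GRCm38.p6, and 12002 without a match were not used. The array design was made for an earlier build, so only the RefSeq promoters carry coordinates. limma 3.58.1 (R 4.3.3; lmFit, then eBayes) tested Met-high against Met-low cells, two-sided, after a check on simulated data. All alternatives are given in the closing section. Named are members past the adjusted p or past 2-fold, the 3 with the brightest probes in each family, members whose probes disagree, partner genes past the adjusted p, and some further members chosen after their values were seen. The members and lists were chosen with earlier results of these data known, and the promoter motifs after the values were seen. Some genes of the partner lists are not reported here and are left out of their counts. Python 3.11.15 was used for tables (pandas 2.3.3, numpy 2.4.6), correlations (scipy 1.17.1) and figures (matplotlib 3.10.9).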

Additional observations from a re-analysis of the deposited data

How the results depend on the processing

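Of 765 repeats of the 55 named genes over 14 alternatives, 657 kept their direction and their side of the threshold, 40 lost a call, 37 gained one and 31 turned direction. The numbers of motor genes called on the Met-high and on the Met-low side (4 and 0) became 5 and 1 with normexp background correction, 2 and 4 with the percentile over probes well above background on all arrays, 0 and 0 without a filter on dim probes, 4 and 2 with genes well above background on all arrays only, and 5 and 2 with a mean-variance trend. With the authors' processed values, with flagged spots kept or with the mean of a gene's probes, the same 4 genes were called, and with quantile normalization 3 of them were. Leaving out each array in turn gave 3 to 6 and 0 to 3. More than 2-fold apart were 1 and 1 genes with normexp, 4 and 4 with the percentile over detected probes, 5 and 7 without the filter, 2 and 2 with the strict filter, and 3 to 7 and 3 to 5 leaving out arrays. Partner genes called higher in Met-low cells (9) numbered 0 without the filter and 5 to 12 leaving out arrays. Over all genes, no filter left 0 calls on the Met-high and 7 on the Met-low side. The cause of these moves was not tested, beyond the larger number of dim genes in the fit without a filter.

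The arrays carry shared replicate numbers, but nothing in the labels ties them to a shared day or batch. With a replicate block, 11 motor genes were called on the Met-high and 10 on the Met-low side, partner genes numbered 6 and 17, and all genes 1976 and 1583. The deviations of Met-low replicate 1 and Met-high replicate 1 from their population means correlated at 0.54 over 11962 genes, and with 2 pairs this does not establish pairing.

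Genes with log2 ratios near 0 or with spread replicates turned direction. With quantile normalization *Myl12b* had -0.11 and *Myo9b* -0.024. With the percentile over detected probes *Myl12b* had -0.086, *Myl6* -0.010, *Myo9b* -0.0025, *Dync2li1* -0.12 and *Kif13b* -0.0026, and *Kif13b* had -0.18 with normexp. Leaving out each array in turn, the ratio ran from -0.46 to 0.83 for *Dnah17*, -0.67 to 0.42 for *Dync1h1*, -0.18 to 0.23 for *Dync2li1*, -1.71 to 2.00 for *Kif13b*, -1.35 to 0.10 for *Kif15*, -0.64 to 0.14 for *Kif21b*, -1.36 to 0.13 for *Kif26b*, -0.56 to 1.30 for *Kif3c*, -0.25 to 0.14 for *Myh9*, -0.14 to 0.0014 for *Myl12a*, -0.17 to 0.29 for *Myl12b*, -0.040 to 0.31 for *Myl6*, -0.10 to 0.49 for *Myo18a*, -0.54 to 0.081 for *Myo7a*, -0.088 to 0.38 for *Myo9b* and -1.02 to 3.30 for *Tagln*. A population left with 1 array was assumed to vary like the other. Low signal over background limits *Myh7*, *Myo1d* and *Foxj1* on the Met-low arrays.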
